A study of Mus musculus with 30 samples.

Results

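The comparison of re-seeded 48 h +dox with re-seeded 0 h +dox cells asks how close the expression of differentiated cells came to that of undifferentiated cells when both had been given OSKM for the same time in the same medium. Its members are the 12926 genes, of 22477 in the table of the series, that reached at least 1 FPKM (fragments per kilobase of transcript and per 1000000 mapped fragments, a level that is scaled by length) in 48 h +dox or in 0 h +dox. The cells were mouse secondary iPSCs, pluripotent cells with dox-inducible OSKM transgenes (Oct4, Sox2, Klf4 and Myc), GFP at the endogenous Nanog locus and a constitutive nuclear RFP. They were maintained in serum/LIF on mouse embryonic fibroblast (MEF) feeders and changed to 2i/LIF before the experiment, and 48 h cells were then differentiated for 48 h by removing 2i and LIF, whereas 0 h cells were not differentiated. Both then spent 48 h in serum/LIF after re-seeding, with 2 µg/ml dox. Each condition has 2 samples, so 4 of the 30 samples of the series make the comparison. Beside it stand 2 further pairs, with 4 samples each and none in common with it, namely 48 h and 0 h cells re-seeded without dox (–dox) and the 48 h and 0 h timepoints of the withdrawal itself. Beyond this maintenance on feeders, gelatin for the withdrawal and MEF feeders for the re-seeding are named in the methods for a colony assay only, so the surface under the cells used for RNA is not known here.

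The deposited value of a condition combines its 2 samples, with no value for either, so no spread, test or p-value accompanies any difference given here, and its read depth is unknown. "Higher" and "lower" mean a plain ratio of at least 2-fold where the larger of both values reached 1 FPKM, unless a value is given. The values of a condition had a sum of 780691 FPKM (0 h +dox) and 832607 FPKM (48 h +dox), and 3980 and 4810 genes were listed at 0. In such bulk samples, fewer cells that express a gene and less RNA of it per cell cannot be told apart.

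Mouse pluripotent cells in 2i/LIF hold a naive state, kept by a network of transcription factors such as Esrrb, Klf2, Tfcp2l1 and Tbx3 around the core factors Oct4, Sox2 and Nanog. The 2i inhibitors block MEK and GSK3, so their removal frees ERK signalling, the naive factors are lost first and a formative state marked by Fgf5, Otx2 and Pou3f1 follows. OSKM are the factors that convert somatic cells to iPSCs, and they can also act on cells that have only just left pluripotency.

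With dox on both sides, 1521 genes were higher in 48 h than in 0 h cells, 11.8% of the members, and 1734 were lower, 13.4%. The other 9671 members, 74.8%, lay within 2-fold, and the median log2 ratio over all members was -0.06. At 4-fold, 470 genes were higher (3.64%) and 613 were lower (4.74%). At 8-fold, 167 genes (1.29%) were higher and 282 (2.18%) were lower. Of the members, 11410 reached 1 FPKM in both conditions, 727 only in 48 h +dox and 789 only in 0 h +dox. A total of 62 members were listed at 0 for 48 h +dox and 13 for 0 h +dox, and these have no finite ratio but are counted as lower and higher. The member nearest to the minimum had a higher value of 1.0003 FPKM, and the nearest gene left out had 0.9995 FPKM. Large ratios were more frequent at low levels. Of the 1290 members whose higher value lay between 1 and 2 FPKM, 24.9% were higher and 25.3% lower, against 6.07% and 7.20% of the 2486 members at 50 FPKM or more.

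**Figure D1:**
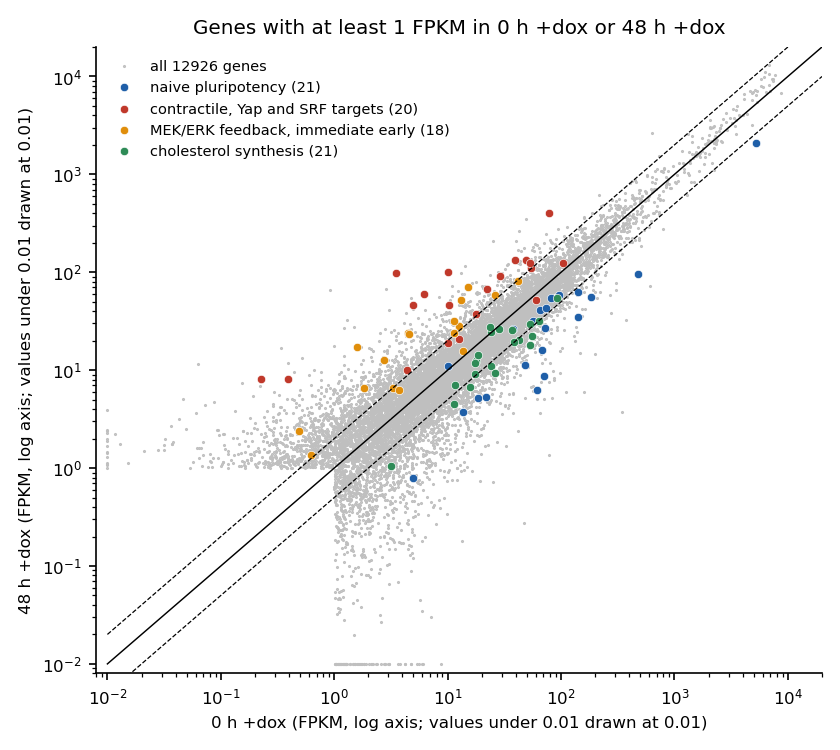
Value of each of the 12926 genes in 0 h +dox (horizontal) and 48 h +dox (vertical), both in FPKM on log axes, with the line of equal values and dashed lines at 2-fold. Naive pluripotency genes lie below the line with 1 exception, 19 of 20 contractile, Yap and SRF target genes and all 18 MEK/ERK feedback and immediate early genes lie above it, and 19 of 21 cholesterol synthesis genes lie below it.

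The members were described by 27 lists of marker and pathway genes. The 2 lists with the highest median log2 ratio among those with at least 8 members were contractile and Yap or SRF target genes, at 1.63, and epithelial and keratin genes, at 1.53. The naive pluripotency list had the lowest, at -1.71. Germline genes, at -1.05, and cholesterol synthesis genes, at -0.91, came next from below. The cytosolic ribosomal protein genes all stayed within 2-fold, with 28 members and a median of 0.19. Background for each count of a list is the 11.8% higher and 13.4% lower of all members.

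**Figure D2:**
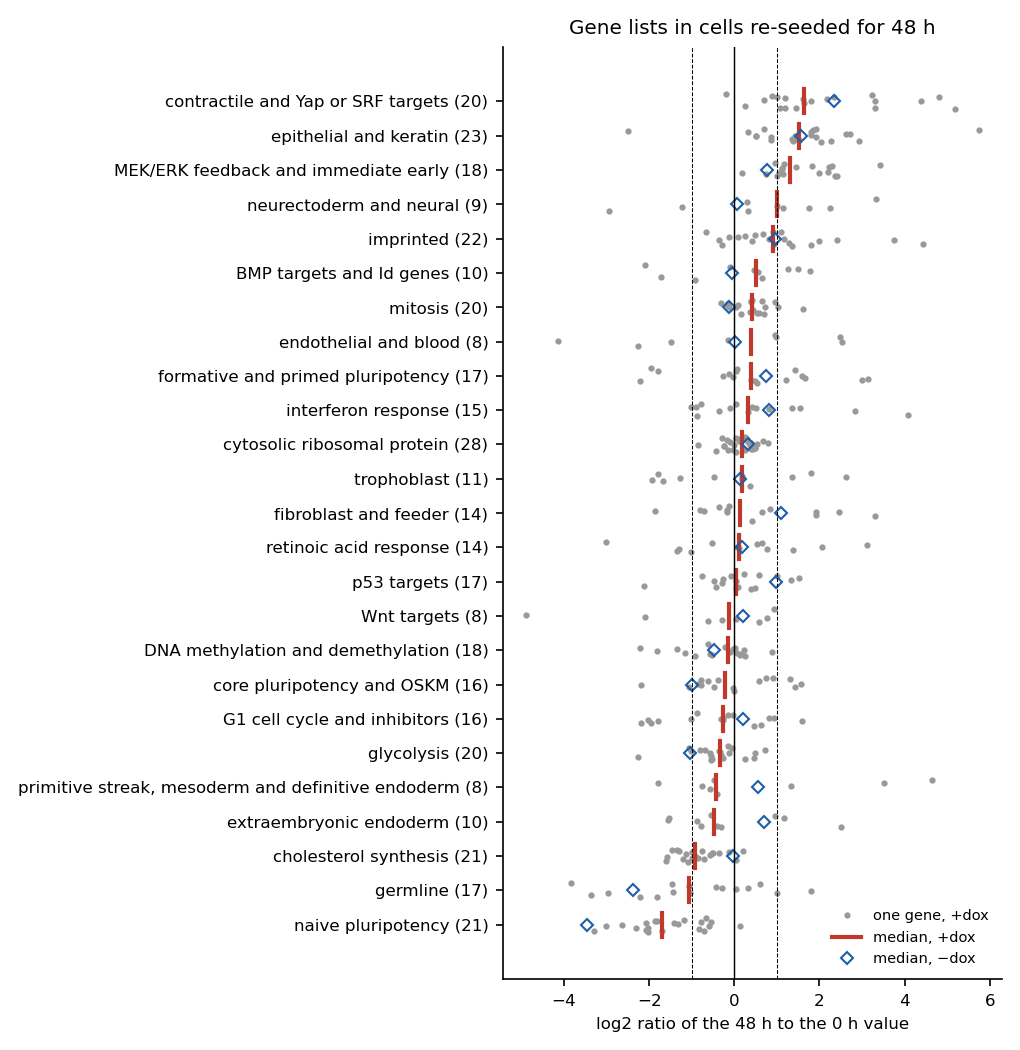
Log2 ratio of the 48 h to the 0 h value for the genes of each list with at least 8 members, the number of members in parentheses. Grey points are genes with dox, red bars their medians and blue diamonds the medians of the same genes without dox. The naive pluripotency median moves from -3.47 without dox to -1.71 with dox, and the cholesterol synthesis median from -0.03 to -0.91.

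All 21 naive pluripotency genes were members, and 14 of them were lower in 48 h +dox, 7 were within 2-fold and none was higher. At 4-fold, 8 were lower. The median 48 h value was 30.6% of the 0 h value. Esrrb, an orphan nuclear receptor of the naive network that lies on chromosome 12 of mm10 from 86361117 to 86521628, was at 183 FPKM at 0 h and 56.2 FPKM at 48 h with dox, 30.6% of the undifferentiated value. Tbx3, a T-box factor, stood at 70.6 and 8.76 FPKM, and Tcl1, a coactivator of AKT, at 61.4 and 6.21 FPKM, 12.4% and 10.1% of the 0 h value. These were the genes of the list furthest from their 0 h level. The orphan receptor gene Nr0b1 stood at 68.0 and 16.3 FPKM, and the adhesion molecule gene Jam2 at 142 and 34.6 FPKM. Prdm14, which represses the exit from the naive state, was at 4.93 FPKM in 0 h and 0.794 FPKM in 48 h cells. Zfp42, known as Rex1, was at 142 and 62.9 FPKM, and Klf2 at 72.5 and 27.0 FPKM.

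The naive genes within 2-fold included 2 parts of the LIF pathway. Stat3, the transcription factor that LIF activates, stood at 38.1 FPKM at 0 h and 26.2 FPKM at 48 h with dox, and its feedback target Socs3 at 73.5 and 43.0 FPKM. Tfcp2l1 held 56.2% of its 0 h value (56.0 and 31.5 FPKM), Klf5 61.4% and Fgf4, an Oct4 and Sox2 target, 66.6%. Dppa3, also known as Stella, was the only gene of the list above its 0 h value, at 10.1 and 11.1 FPKM. At the 0 h timepoint in 2i/LIF Dppa3 was at 168 FPKM, so both re-seeded conditions were far below it.

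Without dox the same list stood further from the undifferentiated state. There 20 of its 21 genes were lower in 48 h than in 0 h cells, where 17.4% of the 13201 genes with 1 FPKM in that pair were, and 16 were lower by 4-fold, where 7.71% of the genes were. The median 48 h value was 9.02% of the 0 h value. Esrrb was at 151 FPKM at 0 h and 8.31 FPKM at 48 h without dox, or 5.49%, and Tcl1 at 70.4 and 0.636 FPKM, or 0.904%. All 21 ratios were nearer to 1 with dox than without. The undifferentiated values of the list, as deposited, differed little with dox, with a median log2 ratio of -0.05 of 0 h +dox to 0 h –dox, whereas that of 48 h +dox to 48 h –dox was 1.61. Scaling each condition to the same sum moves the ratios of 0 h +dox to 0 h –dox by a log2 of -0.23. Then 13 of the 21 had a lower value in 0 h +dox, 3 of them by 2-fold, against 12 and 0 as deposited. All 21 kept a higher value in 48 h +dox than in 48 h –dox.

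**Figure D3:**
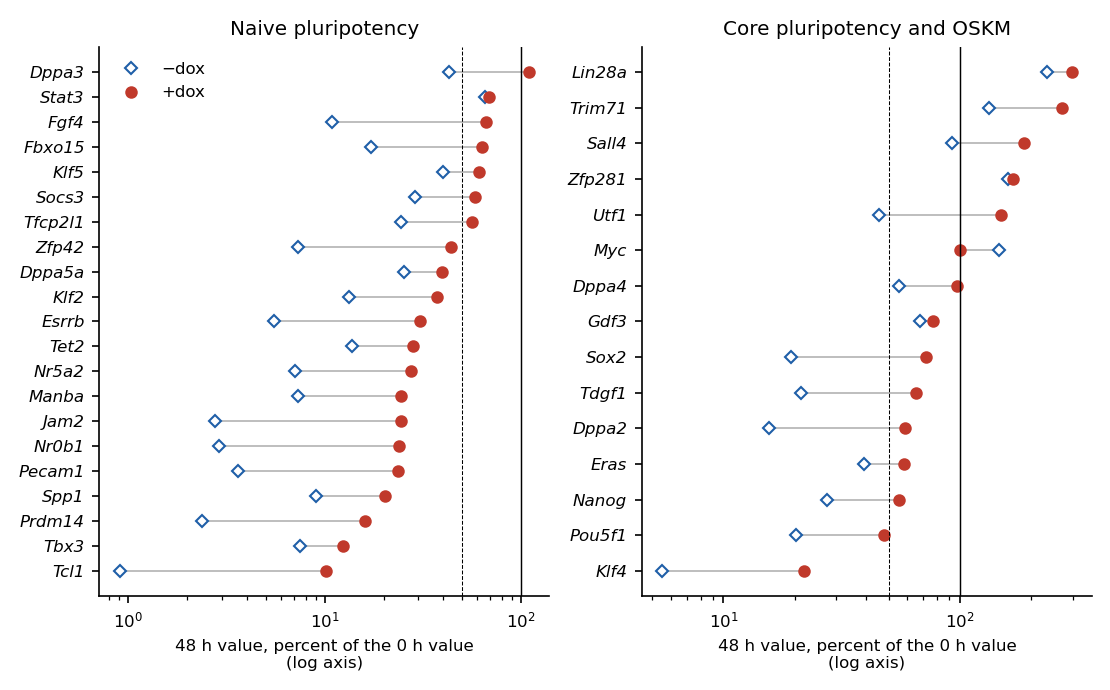
The 48 h value as a percentage of the 0 h value, on a log axis, for naive (left) and core pluripotency genes (right), with dox (red circles) and without (open blue diamonds). The solid line is the 0 h value and the dashed line 50% of it. Every naive gene lies further right with dox than without, and 7 of 21 lie right of 50%, against 13 of the 15 core genes drawn, 1 gene of that list being left out.

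The core factors and OSKM themselves were nearer to the 0 h level than the naive genes. Of 16 genes, 11 were within 2-fold, 3 were higher and 2 lower, and the median 48 h value was 87.0% of the 0 h value. The values of Pou5f1 (Oct4), Sox2, Klf4 and Myc add transgene to endogenous transcripts wherever reads of both map to the gene. Pou5f1 was at 425 FPKM at 0 h and 204 FPKM at 48 h with dox, Sox2 at 122 and 87.8 FPKM, and Myc at 18.7 and 18.7 FPKM. Klf4 stood furthest apart of the OSKM genes, at 66.7 and 14.6 FPKM, 21.9% of the 0 h value. Of the OSKM genes, Klf4 and Pou5f1 were thus lower in 48 h +dox, Sox2 was within 2-fold and Myc was level, and how much of each came from the transgene was not measured. Nanog, on chromosome 6 between 122707489 and 122714633, was at 87.8 and 48.6 FPKM, or 55.3%. Without dox its value was 27.4% (120.3 and 32.9 FPKM).

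Several RNA-binding and chromatin factors of pluripotent cells were above their 0 h level. Lin28a, which blocks maturation of let-7 miRNAs, was at 41.8 FPKM in 0 h and 124 FPKM in 48 h cells, 2.97-fold higher. Trim71 was 2.69-fold higher, and Sall4 stood at 46.7 and 87.1 FPKM. Utf1, a chromatin-associated pluripotency factor, stood at 368 FPKM at 0 h and 549 FPKM at 48 h with dox, and at 653 and 298 FPKM without dox. Dppa4 was nearly level with dox, at 119.5 and 116 FPKM. For 15 of the 16 core genes the 0 h value was lower with dox than without, with a median log2 ratio of -0.75, and Sox2 was at 224 and Tdgf1 at 612 FPKM in 0 h –dox against 122 and 311 FPKM in 0 h +dox.

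The promoter of Nanog is shown for a match to the composite motif to which Oct4 and Sox2 bind together. The motif was searched in 1 spelling with 1 position left free, on both strands of the 250 bases upstream of each start. This spelling was in 2 of 32851 RefSeq promoters, 0.00609%, both listed for Nanog. Other spellings of the motif were not searched, so the count does not show that promoters of other genes lack it. The match reads on the reverse strand and is in capitals. The stretch is chr6:122707239-122707488 of GRCm38.p6, forward strand, written 5′ to 3′ towards the start site, and the motif begins 75 bases before its end.
Nanog: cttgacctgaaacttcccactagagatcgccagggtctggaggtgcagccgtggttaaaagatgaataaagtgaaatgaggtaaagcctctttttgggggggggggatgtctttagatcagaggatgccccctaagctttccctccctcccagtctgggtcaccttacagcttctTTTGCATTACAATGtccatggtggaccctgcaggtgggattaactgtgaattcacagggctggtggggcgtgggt
The match is a description of these letters, and the data do not bear on binding there.

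Genes of the formative and primed states were split. Of 17 members, 6 were higher, 3 lower and 8 within 2-fold, with a median log2 ratio of 0.38. Otx2, a homeobox factor of the formative state, was at 9.26 FPKM at 0 h and 27.7 FPKM at 48 h with dox, and Pou3f1 (Oct6) at 2.40 and 7.61 FPKM. Sox4 was 7.98-fold higher, at 2.46 and 19.7 FPKM. Fgf5, the usual marker of the state, was under 1 FPKM in both dox-treated conditions, at 0.381 FPKM in 48 h +dox, and at 17.2 FPKM in 48 h –dox. Lower genes were Dnmt3l, a cofactor of the de novo methyltransferases, at 306 and 66.4 FPKM, the ETS factor gene Etv4, at 164 and 42.3 FPKM, and Foxd3. The methyltransferases themselves were level, with Dnmt3a at 31.0 and 30.3 FPKM and Dnmt3b at 61.3 and 63.8 FPKM. At 48 h of withdrawal, before re-seeding, Dnmt3b had been at 586 FPKM and Otx2 at 88.4 FPKM.

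Nodal, a TGF-beta family ligand of the early embryo, and its antagonists stood well above the 0 h level. Nodal was at 9.21 and 23.2 FPKM, Lefty2 at 4.76 and 54.5 FPKM, and Lefty1, on chromosome 1 from 180935022 to 180938400, at 1.29 and 32.4 FPKM. Lefty1 also had a low undifferentiated value with dox, against 25.2 FPKM in 0 h –dox, and it reached 96.2 FPKM in 48 h –dox. Without dox these 3 genes were higher too. Other genes of the primitive streak, mesoderm and endoderm list were low. Of its 25 genes, 17 were under 1 FPKM in both conditions, and Eomes, Gata4 and Hand1 did not exceed 2 FPKM in either. In the neurectoderm and neural list, 11 of 20 genes were under 1 FPKM, 4 were higher and 2 lower. Nes, an intermediate filament of neural progenitors, was at 1.67 and 16.7 FPKM, Sox11 at 2.01 and 9.59 FPKM and Tubb3 at 2.99 and 10.1 FPKM, whereas the neural factor Sox1 was at 1.17 and 0.151 FPKM.

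Contractile genes and targets of Yap and SRF formed the list with the highest median ratio. Of 20 members, 16 were higher in 48 h +dox, 4 were within 2-fold and none was lower, and 8 were higher by 4-fold. With each condition scaled to the same sum, 14 were higher by 2-fold. SRF and Yap are transcriptional regulators that respond to actin assembly and cell spreading. Tagln, an actin-binding protein of smooth muscle on chromosome 9 between 45929619 and 45936058, was at 3.48 FPKM at 0 h and 97.2 FPKM at 48 h with dox, 28.0-fold higher. Smooth muscle actin Acta2 was at 6.13 and 60.2 FPKM, calponin Cnn1 at 0.225 and 8.21 FPKM, and tropomyosin Tpm1 at 78.5 and 400.4 FPKM. The Yap targets Cyr61 and Ctgf were 9.96-fold and 4.51-fold higher. Skeletal muscle actin Acta1, which is not on the list, had the second largest ratio of all genes that reached 10 FPKM, at 0.925 and 65.4 FPKM. Srf itself stood at 12.7 and 20.7 FPKM, and Lmna, a nuclear lamina gene, was the only member below its 0 h value, at 60.7 and 52.7 FPKM.

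The same genes stood apart without dox, most of them further. There 17 of the 20 were higher, against 15.1% of all genes of that pair, with a median log2 ratio of 2.35. Acta2 was at 2.61 FPKM at 0 h and 136 FPKM at 48 h without dox, and Tpm1 at 74.6 and 938 FPKM. Cnn1, Myl9, Srf and Ajuba had the larger ratio with dox. Myl9, a myosin light chain, was 9.46-fold higher with dox and 6.63-fold higher without.

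Promoters of contractile genes are shown because members of the list were higher together and SRF binds a short motif, the CArG box. It was searched on both strands in the 250 bases upstream of each start. Of the 20 members of the list, 17 were in the RefSeq table, with 20 promoters between them since some genes have several starts. A CArG box stood in 4 of these promoters, or 20.0%, those of Myl9, Cnn2, Vcl and Srf. Over all promoters the share was 1.47%, or 482 of 32851. The list was chosen partly as SRF targets, so this share was not independent of the choice. The boxes are in capitals below, each stretch runs 5′ to 3′ towards the start site, and all are of GRCm38.p6. Acta1 is chr8:123894776-123895025 on the reverse strand, Myl9 chr2:156775214-156775463 on the forward strand, Cnn2 chr10:79988350-79988599 on the forward strand and Srf chr17:46556163-46556412 on the reverse strand, with 2 boxes.
Acta1: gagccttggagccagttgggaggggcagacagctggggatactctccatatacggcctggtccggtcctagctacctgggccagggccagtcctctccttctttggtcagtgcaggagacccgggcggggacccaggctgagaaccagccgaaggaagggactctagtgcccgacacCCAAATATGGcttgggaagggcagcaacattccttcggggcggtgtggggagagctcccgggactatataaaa
Myl9: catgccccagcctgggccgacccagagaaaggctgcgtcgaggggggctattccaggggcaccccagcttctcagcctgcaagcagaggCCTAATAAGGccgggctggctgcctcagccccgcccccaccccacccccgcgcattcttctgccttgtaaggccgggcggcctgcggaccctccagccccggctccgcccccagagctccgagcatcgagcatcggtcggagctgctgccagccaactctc
Cnn2: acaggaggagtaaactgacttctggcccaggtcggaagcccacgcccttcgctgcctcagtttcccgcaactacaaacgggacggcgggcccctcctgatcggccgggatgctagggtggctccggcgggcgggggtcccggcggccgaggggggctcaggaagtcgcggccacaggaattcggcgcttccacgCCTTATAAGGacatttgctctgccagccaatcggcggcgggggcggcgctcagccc
Srf: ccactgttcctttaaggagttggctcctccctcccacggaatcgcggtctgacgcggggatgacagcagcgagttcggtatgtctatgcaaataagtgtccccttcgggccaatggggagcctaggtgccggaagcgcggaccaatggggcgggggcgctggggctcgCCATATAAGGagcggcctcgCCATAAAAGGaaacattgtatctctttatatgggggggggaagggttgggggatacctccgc
Beside these letters stand ratios of 48 h to 0 h +dox of 70.7 for Acta1, 9.46 for Myl9, 2.74 for Cnn2 and 1.63 for Srf. No match was found for Tagln, Acta2 or Cnn1. Members without a RefSeq promoter could give no match, and looser spellings of the box and stretches outside this window were not searched.

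Epithelial and keratin genes were also mostly higher. Of 23 members, 16 were higher, 1 was lower and 6 were within 2-fold. Keratins 8 and 18, the pair of filament proteins of simple epithelia, were at 41.4 and 106 FPKM and at 42.5 and 264 FPKM. Without dox they were further apart, with Krt18 at 73.0 FPKM in 0 h and 1268 FPKM in 48 h cells. The tight junction genes Cldn6 and Cldn7 were 4.08-fold and 3.76-fold higher, and the epithelial splicing factor Esrp1 3.80-fold. Epcam stood at 119 and 215 FPKM and E-cadherin (Cdh1) at 121 and 171 FPKM.

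Some epidermal genes stood apart with dox and not without it. Krtdap, a gene of differentiating keratinocytes, was at 13.1 FPKM at 0 h and 99.0 FPKM at 48 h with dox, and at 2.41 and 2.98 FPKM without dox. Krt14, a keratin of the basal epidermis, was at 0.0875 and 4.72 FPKM with dox and at 0.304 and 0.433 FPKM without. The only lower gene of the list was Krt42, at 67.8 and 11.9 FPKM, which was lower without dox as well.

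Feedback genes of the MEK/ERK pathway and immediate early genes were higher in 48 h +dox in 15 of 18 cases, with none lower. With each condition scaled to the same sum 13 were higher, and all 18 stayed above their 0 h value. The ETS factor gene Etv4, counted in the formative list and not in this one, was lower. Egr1, an early ERK target, was at 1.58 FPKM at 0 h and 17.1 FPKM at 48 h with dox, 10.8-fold higher. The ERK phosphatase gene Dusp6 was at 15.1 and 70.2 FPKM, and the feedback inhibitor Spry4 at 11.5 and 31.5 FPKM. Among AP-1 genes, Jun was at 2.78 and 12.8 FPKM, Junb at 13.2 and 52.1 FPKM and Fos at 3.75 and 6.26 FPKM. Without dox 7 of the 18 were higher and 1, Spry4, was lower, against 7 and 2 at the same sum. In that pair Egr1 was at 16.1 and 8.98 FPKM, Dusp6 at 41.9 and 46.9 FPKM and Spry4 at 41.5 and 6.95 FPKM. The undifferentiated cells differed with dox, since 13 of the 18 genes had a lower value in 0 h +dox than in 0 h –dox cells, and 7 of them were lower by 2-fold, against 5.61% of all genes of that pair. Between 48 h +dox and 48 h –dox cells the differences went both ways. There 10 of the 18 had a higher value with dox, 2 of them by 2-fold, and 8 a lower value, 3 of them by 2-fold. The median log2 ratio of +dox to –dox was 0.02 at 48 h, against -0.56 at 0 h. At the same sum 8 of the 18 had a higher and 10 a lower value with dox at 48 h. At 0 h 15 of the 18 then had a lower value with dox, 7 of them by 2-fold.

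Cholesterol synthesis genes were level or lower. Of 21 genes, 8 were lower in 48 h +dox, 13 were within 2-fold and none was higher, and 19 had a ratio below 1. Fdft1, squalene synthase, was at 53.6 FPKM at 0 h and 17.9 FPKM at 48 h with dox, Dhcr7, the last enzyme of a branch of the pathway, at 25.9 and 9.46 FPKM, and Pmvk, phosphomevalonate kinase, at 55.2 and 22.3 FPKM. Hmgcs1 was just inside 2-fold, at 63.7 and 32.0 FPKM. Without dox only 2 of the 21 were lower, and the median log2 ratio was -0.03. All 21 genes had a higher value in 0 h +dox than in 0 h –dox, with a median log2 ratio of 0.55, while the median of 48 h +dox to 48 h –dox was -0.04. Scaling each condition to the same sum, which moves all ratios of 0 h +dox to 0 h –dox by a log2 of -0.23 and those of 48 h to 0 h +dox by -0.09, left 19 of the 21 higher in 0 h +dox and made 11 lower in 48 h +dox.

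**Figure D4:**
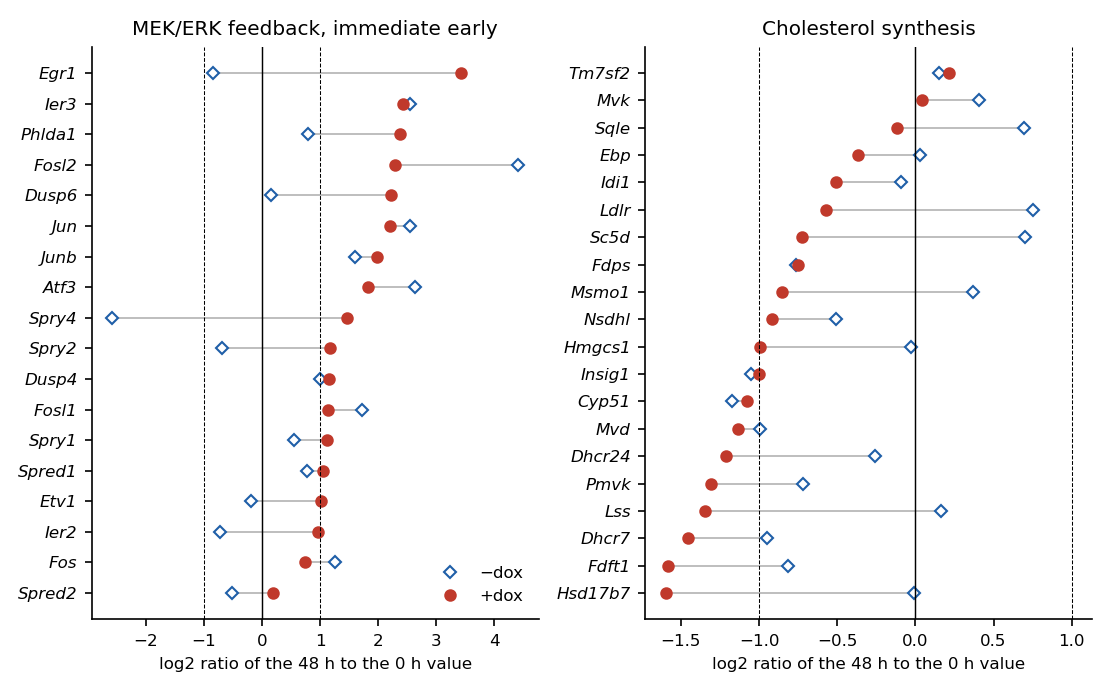
Log2 ratio of the 48 h to the 0 h value with dox (red circles) and without (open blue diamonds) for MEK/ERK feedback and immediate early genes (left) and cholesterol synthesis genes (right), with dashed lines at 2-fold. With dox all 18 genes on the left lie above 0. Without dox 6 of the 18 have a 48 h value below the 0 h value, Egr1 and Spry4 among them. On the right, where 20 of the 21 genes are drawn, the red circles reach -1.60 for Hsd17b7, whose ratio without dox was -0.01.

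Germline genes, many of which are also expressed in naive pluripotent cells, were mostly lower. Of 17 members, 10 were lower, 1 was higher and 6 were within 2-fold. Dazl, an RNA-binding protein of germ cells, was at 19.8 FPKM at 0 h and 1.39 FPKM at 48 h with dox, and Fkbp6, needed for meiosis and piRNAs, at 34.8 and 4.46 FPKM. Rpl10l, a testis retrocopy of Rpl10 whose reads may be shared with its parent gene, was at 97.2 and 9.47 FPKM. Stra8, a retinoic acid target that starts meiosis, was at 4.76 FPKM in 0 h +dox and listed at 0 in 48 h +dox. Sycp3, of the synaptonemal complex, was the only higher gene, at 9.02 and 31.6 FPKM, and it was level without dox, at 12.6 and 12.5 FPKM. Without dox 13 of the 17 were lower and none was higher.

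Among genes of DNA methylation and its removal, 14 of 18 were within 2-fold and 4 were lower. Beside Dnmt3l these were Uhrf1, the partner of the maintenance methyltransferase, at 160.5 and 62.8 FPKM, the oxidase Tet2, at 18.4 and 5.20 FPKM, and Zfp57, which protects imprints, at 341 and 154 FPKM. Tet1 stood at 90.7 and 47.6 FPKM with dox and at 64.2 and 9.51 FPKM without.

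Imprinted genes were higher or level. Of 22 members, 10 were higher and none was lower, with a median log2 ratio of 0.90. Nnat, a membrane proteolipid gene, was at 3.07 and 41.3 FPKM, H19 at 65.6 and 161 FPKM and its neighbour Igf2 at 3.08 and 10.7 FPKM. In the Dlk1 to Meg3 region, Mirg was at 10.9 and 57.6 FPKM, Rian at 160.2 and 357 FPKM and Meg3 at 164 and 220.2 FPKM. Rtl1 and its antisense transcripts overlap there, and the strand setting of the counting is not given in the sources used here, so Rtl1 (0.438 and 9.48 FPKM) is uncertain. Airn was listed at 0 in 0 h +dox and stood at 1.00 FPKM in 48 h +dox. Without dox 11 of the 22 were higher and none was lower. There H19 was at 189 and 759 FPKM.

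Signalling pathways other than ERK were mixed. Of 10 members of the BMP and Id list, 3 were higher and 2 lower. The inhibitors of differentiation Id1 and Id2 were at 35.7 and 86.1 FPKM and at 21.3 and 73.2 FPKM, and the ligand Bmp4 was at 8.85 and 2.05 FPKM. Of 8 Wnt target genes, 2, Notum and Bmp4, were lower and none was higher. Notum, a secreted Wnt inhibitor, was at 4.74 and 0.159 FPKM, and Axin2 stood at 1.04 and 0.683 FPKM. Of 15 interferon response genes, 4 were higher and 1 was lower. The higher genes, B2m, H2-K1, Psmb9 and Gbp2, include parts of antigen presentation, and B2m was at 49.1 and 351 FPKM. Of 14 retinoic acid response genes, 3 were higher and 5 lower. Meis2 was at 6.62 and 0.817 FPKM, and the retinoic acid hydroxylase Cyp26a1 at 0.296 and 2.55 FPKM. Of 31 Hox genes in the table, 29 were under 1 FPKM in both conditions, and Hoxc4 was at 4.50 and 0.149 FPKM.

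Targets of p53 were level with dox and not without it. Of 17 members, 14 were within 2-fold with a median log2 ratio of 0.04, and without dox 8 were higher with a median of 0.98. The cell cycle inhibitor Cdkn1a (p21) was at 66.4 FPKM at 0 h and 55.7 FPKM at 48 h with dox, and at 26.0 and 64.4 FPKM without dox. Mdm2, which degrades p53, was at 82.4 and 78.4 FPKM with dox and 46.5 and 91.8 FPKM without. Here too the undifferentiated cells differed, as 16 of the 17 had a higher value in 0 h +dox than in 0 h –dox, with a median log2 ratio of 0.67. Pmaip1 and Perp were higher in both pairs.

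Genes of cell division and of metabolism mostly stayed within 2-fold. Of 20 mitosis genes, 18 were within 2-fold and 2, Cenpe and Cenpf, were higher. In 0 h +dox 19 of these 20 genes had a lower value than in 0 h –dox, with a median log2 ratio of -0.29. In the G1 list 5 of 16 were lower, among them Ccnd3, a D-type cyclin, at 302 and 78.3 FPKM, and Cdkn2a, which encodes the inhibitor p16 and the p53 activator Arf, at 38.5 and 8.47 FPKM. Rb1 was the higher gene, at 5.77 and 17.3 FPKM. Of 20 glycolysis genes, 17 were within 2-fold and 3, Hk1, Pfkp and Ldha, were lower. Hk1 was at 51.2 and 10.7 FPKM. Without dox 10 of the 20 were lower, and the list's median log2 ratio was -1.03, against -0.34 with dox.

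Markers of other cells that the cultures could hold were low or mixed. Of the 24 fibroblast and feeder genes, 14 were members, 4 of which were higher, 1 lower and 9 within 2-fold. The sum of the list was 378 FPKM at 0 h and 305 FPKM at 48 h with dox. Collagen genes that define fibroblasts were low in both, with Col1a1 at 2.55 and 2.27 FPKM and Col1a2 at 1.62 and 1.49 FPKM, while without dox Col1a1 was at 1.45 and 4.97 FPKM. Vim was lower, at 92.4 and 25.5 FPKM, and the higher genes were Acta2, Thbs1, S100a4 and Dcn. Without dox 7 of the 14 were higher and none lower, and the sum was 311 FPKM at 0 h and 502 FPKM at 48 h there. The part of such cells in the differences, contractile genes included, was not tested. Of 20 endothelial and blood genes, 12 were under 1 FPKM, 2 were higher and 3 lower. Of the trophoblast list, 3 of 11 members were higher, all of them keratins, and 4 were lower. Extraembryonic endoderm genes had 2 higher and 2 lower among 10 members, and only 1 gene of the 16 two-cell-like genes in the table reached 1 FPKM.

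Single genes were also ranked over the whole table among those that reached 10 FPKM. The largest ratio was that of Trim67, a ubiquitin ligase of the TRIM family on chromosome 8 from 124793092 to 124834713, at 0.0629 FPKM at 0 h and 11.6 FPKM at 48 h with dox, a log2 ratio of 7.53. With so low a reference value, and the reads behind it unknown, the size of that ratio is uncertain. It was followed by Acta1 (6.14), Fndc3c1 (5.62), the growth hormone receptor Ghr (4.90), Tagln (4.81), the neuronal kinesin Kif1a (4.67) and Lefty1 (4.65). Next in log2 ratio came carbonic anhydrase Car4 (4.57), Prom1 (4.48), Gm20529 (4.21), Plac8 (4.15) and Sema3e (3.92). All of these except Gm20529 were also above their 0 h value without dox, Car4 at 11.4 and 639.8 FPKM. The smallest ratio was that of Khdc3, known as Filia, a maternal and stem cell factor of genome stability on chromosome 9 from 73101836 to 73104438, at 47.1 and 0.277 FPKM, or a log2 ratio of -7.41. An entry whose symbol a spreadsheet had turned into a date (1-Sep) was at 347 and 3.70 FPKM, and its gene is not named here. Further down stood Gm13580, an antisense transcript (-6.20), Vwa3b (-5.86), Arl14epl (-5.12), Gm7325 (-4.74), Timm8a2 (-4.72), the lipid carrier Apod (-4.28), Gstp2 (-4.19), the acute phase gene Saa3 (-4.14), the meiotic gene Rec114 (-4.13) and Gata2 (-4.13), all as log2 ratios. Gstp2 and Timm8a2 have close paralogs with which reads may be shared. Gata2, a transcription factor of blood and trophoblast, was highest in 0 h +dox of these conditions, at 16.3 FPKM against 0.929 FPKM in 48 h +dox and 1.22 and 2.88 FPKM in 0 and 48 h –dox.

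By the difference in FPKM the list was led by genes of the translation machinery. All 8 of the largest gains were ribosomal protein genes, from Rps27 at 6867 and 13192 FPKM to Rpl36 at 4646 and 7059 FPKM, and each stayed within 2-fold. Pseudogene copies of these genes may share their reads. The largest loss was that of Dppa5a, a naive pluripotency gene, at 5217 and 2078 FPKM. The elongation factor Eef1a1 stood at 8647 and 6794 FPKM, the metallothioneins Mt2 and Mt1 at 4877 and 3162 FPKM and at 2224 and 1105 FPKM, and the small heat shock gene Hspb1 at 1299 and 615 FPKM. Rpl4, Ppia and Rps6 completed the 8.

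The gap between 48 h and 0 h cells was smaller with dox than without it for many genes, and the 2 pairs share no sample. Without dox 1997 genes were higher (15.1%) and 2303 lower (17.4%) in 48 h cells. Of those 2303 lower genes, 1147 (49.8%) were lower with dox too, 1132 (49.2%) were within 2-fold or under 1 FPKM in both dox-treated conditions and 24 (1.04%) were higher. Of the 1997 higher genes, 909 (45.5%) were higher with dox too, 1069 (53.5%) were not apart and 19 (0.951%) were lower. Counted the other way, 66.1% of the 1734 genes lower with dox were lower without it, and 59.8% of the 1521 higher genes were higher without it. Genes chosen for a large difference in one pair tend to show a smaller one in another, so the share is given from both sides. The genes lower without dox had a median log2 ratio of -1.74 in that pair and -1.05 with dox, and the genes higher without dox 1.65 and 1.11. These medians are given from that side only, so the same tendency applies to them.

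**Figure D5:**
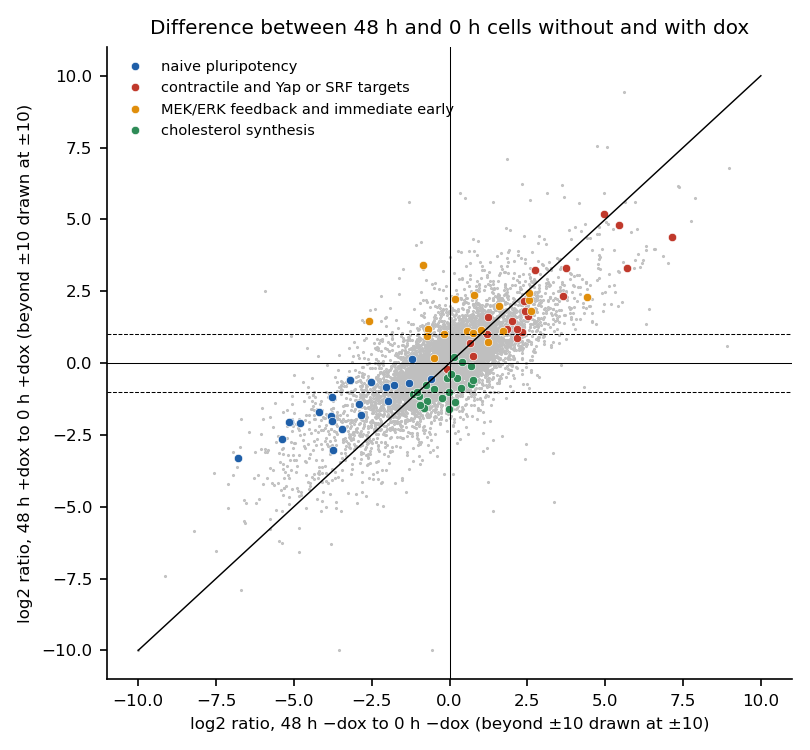
Log2 ratio of 48 h to 0 h cells without dox (horizontal) and with dox (vertical) for the 12780 members with a ratio in both pairs, of which 3 beyond 10 are drawn at the edge. The diagonal marks equal ratios and the dashed lines 2-fold with dox. All 21 naive pluripotency genes lie above the diagonal, left of 0, and 17 of 21 cholesterol synthesis genes lie below it.

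Of all genes, 5.93% were higher and 7.71% lower by 4-fold without dox, and 304 of the lower genes reached 10 FPKM. With dox, 135 of these (44.4%) were still lower by 4-fold, 108 (35.5%) by 2 to 4-fold, and 61 (20.1%) were not lower by 2-fold. Of the higher genes 284 reached 10 FPKM, of which 103 (36.3%) were still higher by 4-fold, 116 (40.8%) by 2 to 4-fold and 65 (22.9%) were not higher by 2-fold. These 4-fold shares are given from the –dox side only. The tendency to a smaller difference in another pair thus applies to them and to the genes picked from them.

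The genes of that set nearest to their undifferentiated level with dox included enzymes and signalling components. Usp28, a deubiquitinase on chromosome 9 between 48985375 and 49042517, was at 73.5 FPKM at 0 h and 74.2 FPKM at 48 h with dox, but at 89.7 and 16.9 FPKM without dox. Dlc1, a GTPase-activating protein gene, stood at 25.3 and 22.8 FPKM with dox and 44.7 and 6.36 FPKM without. The Wnt receptor gene Fzd5 was at 7.87 and 8.68 FPKM with dox and 14.7 and 2.40 FPKM without. Syk, Adam23, Pde9a, Atp1b2 and Egln3 had the same pattern. For Egln3, an oxygen-sensing hydroxylase, both dox-treated values were low, at 2.49 and 2.48 FPKM, against 15.3 FPKM in 0 h –dox. Of genes higher without dox, the muscle filamin Flnc was level with dox, at 4.24 and 4.05 FPKM, and stood at 2.92 and 34.6 FPKM without. The kinase gene Plk2, a p53 target, stood at 17.1 and 22.4 FPKM with dox and 7.08 and 46.8 FPKM without. The other genes nearest to a ratio of 1 in this direction were BC023829, Sct, Pid1, Lbhd1, Cxx1a and Tax1bp3.

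At the other end were genes whose gap was widest with dox. Among those lower without dox, Khdc3 was at 88.6 FPKM at 0 h and 0.158 FPKM at 48 h without dox, and Vwa3b at 71.2 and 0.242 FPKM. Halr1, a noncoding RNA next to the Hoxa genes, was at 9.88 and 0.338 FPKM with dox and 22.5 and 0.306 FPKM without. Among those higher without dox, the matrix gene Efemp1 was at 0.222 and 6.85 FPKM with dox and 0.213 and 46.0 FPKM without, so the ratio stayed large while the 48 h level was lower with dox.

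Other genes, with at least 10 FPKM and a 4-fold gap with dox, were named for the –dox ratio nearest to 1, and for 3 of them, Slc30a2, Gadd45g and Neat1, that ratio was still beyond 2-fold. Lower in 48 h +dox were Cdkn2a, Hotairm1, Smim20, Ablim1, Slc30a2, Trf, the stress gene Gadd45g and the noncoding RNA Neat1. Gadd45g was at 56.5 FPKM at 0 h and 6.84 FPKM at 48 h with dox, and at 11.4 and 24.1 FPKM without dox. Neat1, which builds paraspeckles, was at 71.6 and 13.2 FPKM with dox and 51.1 and 22.2 FPKM without. Hotairm1 is an antisense transcript, so its value (14.4 and 3.13 FPKM) may include reads of the other strand. Higher in 48 h +dox were Dusp6, Krtdap, Slc25a40, Chac1, 1190005I06Rik and 3 regulators of growth and development. Mycn, a paralog of Myc, was at 8.45 and 56.4 FPKM with dox and at 45.0 and 30.5 FPKM without. Myb, a transcription factor of progenitor cells, was at 1.22 and 11.2 FPKM with dox and 2.07 and 1.77 FPKM without. Tek, the angiopoietin receptor, was at 2.15 and 12.5 FPKM with dox and 1.19 and 1.03 FPKM without. For Mycn, Dusp6, Tek and Myb alike the 48 h +dox value stood above the other 3 values. For Mycn, Dusp6 and Myb the 0 h +dox value was also below the 0 h –dox value, and for Tek it was above.

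The withdrawal itself, before any re-seeding, left a different trace. At its 48 h timepoint 1592 genes were higher (12.1%) and 2239 lower (17.0%) than at its 0 h timepoint. Of the 1734 genes lower in 48 h +dox, 664 (38.3%) were lower in the withdrawal as well, 118 (6.81%) were higher and 952 (54.9%) were neither. Of the 1521 higher genes, 494 (32.5%) were higher, 144 (9.47%) were lower and 883 (58.1%) were neither. From the other side, 29.7% of the genes lower and 31.0% of the genes higher at 48 h of withdrawal were so with dox. Counting both pairs, 434 of the lower genes (25.0%) and 466 of the higher genes (30.6%) with dox were on that side in neither the –dox pair nor the withdrawal. Fibroblast and feeder genes moved with this pair, as 10 of the 14 in the list were lower at 48 h and their sum was 1687 FPKM at 0 h and 277 FPKM at 48 h. Col1a1 was at 229 and 5.00 FPKM, and the part of such cells in the counts of this pair was not tested. All 21 naive genes were lower at 48 h of withdrawal, with a median log2 ratio of -3.30, and Nanog was at 227 and 6.45 FPKM.

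Cells differentiated for 24 and 96 h and re-seeded with dox were set against the same 0 h +dox value, which they share with the comparison above, so the counts are given side by side only. After 24 h, 18.8% of genes were at least 2-fold from the 0 h +dox value in either direction, after 48 h 25.2% and after 96 h 35.8%. Esrrb was at 66.5, 56.2 and 4.06 FPKM in 24, 48 and 96 h +dox, and Nanog at 65.9, 48.6 and 8.63 FPKM. Tfcp2l1 did not follow this order, at 12.2, 31.5 and 22.7 FPKM. Krt18 was at 69.4, 264 and 901 FPKM, and Tagln at 50.9, 97.2 and 87.2 FPKM.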

How the data were processed

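Poly-A RNA of 30 samples, 2 per condition, was sequenced by the authors after ligation of RNA adaptors. Reads were aligned by the authors to mm10 with TopHat 2.0.14, and deposited FPKM values were made with Cuffdiff of Cufflinks 2.2.1 over Gencode M4 transcripts of at least 200 bp. Each FPKM value deposited by the authors combines both replicates of a condition. Library normalization and strand setting are not given in the sources used here. The table also holds 5 columns of the authors' own group calls, which were not used. No column was left unmapped. A total of 27 rows carry symbols that read as dates, and 4 rows share a symbol.

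Plain ratios were taken where the higher of 2 values reached 1 FPKM, with no test. Genes were named from 27 lists and by fixed rules: the 12 largest and smallest ratios at 10 FPKM or more, the 8 largest FPKM differences each way, genes at 10 FPKM or more in 1 dox-treated condition and listed at 0 in the other (there were none), and the 8 genes each way whose 4-fold gap without dox was most closed or most kept with dox, or whose 4-fold gap with dox was nearest to level without. Members and lists were chosen with earlier results of these data known. Coordinates are those of Gencode M21 (mm10), in which 94.9% of symbols were found, and promoters those of RefSeq GRCm38.p6. Of the members, 78.0% had a promoter there, too few to give a motif share over all members. Calls were tested on simulated data with 200 seeded genes, which checks the counting only and not the spread between replicates. Other minimums, folds, added constants and scalings were tried. Python 3.11.15 with numpy 2.4.6 and pandas 2.3.3 was used. A few genes of the lists are counted but not reported by name here.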

Additional observations from a re-analysis of the deposited data

Results flagged for a closer look

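Among 7103 genes with at least 10 FPKM in both pairs, 8 were at least 2-fold apart in opposite directions with and without dox. With 1 combined value per condition this difference between the pairs was not tested.

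Higher in 48 h than in 0 h cells with dox and lower without were 3 of them. Otx2, a formative homeobox factor, had a log2 ratio of 1.58 with dox and -2.08 without, and it stood at 9.26 and 27.7 FPKM with dox and at 55.2 and 13.1 FPKM without. Spry4, the ERK feedback inhibitor, had log2 ratios of 1.46 and -2.58. Aldh1b1, a mitochondrial aldehyde dehydrogenase, had log2 ratios of 1.496 and -1.73, with 3.72 and 10.5 FPKM with dox.

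Lower with dox and higher without were the other 5. Gadd45g, a stress-response gene, had log2 ratios of -3.05 with dox and 1.08 without. Tmsb15l, a thymosin beta gene, had -2.03 and 1.30, with 15.3 and 3.73 FPKM with dox. The zinc finger gene Zfp423 had -1.46 and 1.32, the neurofilament gene Nefm -1.24 and 1.38, and annexin Anxa5 -1.17 and 1.13, all as log2 ratios. With a minimum of 1 FPKM, 24 genes were higher with dox and lower without, and 19 the reverse.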

How the results depend on the processing

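The counts of genes moved with the minimum and the fold. The 1521 higher and 1734 lower genes became 3588 and 4078 with no minimum, 795 and 983 with a minimum of 5 FPKM, 937 and 1093 with 1 FPKM in both conditions, 2749 and 3187 at 1.5-fold, and 470 and 613 at 4-fold. With 1 FPKM added to both values, 939 were higher and 1231 lower. Median-of-ratios factors gave 1590 and 1635, and scaling to an equal sum per condition 1446 and 2107. The median log2 ratio stayed between -0.15 and -0.02 under its 4 alternatives.

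The share of genes lower without dox that were lower with dox, 49.8%, was 67.2% for genes 4-fold lower without dox, 62.2% with 0 h –dox as the reference and 29.7% for genes chosen by the withdrawal. For higher genes, 45.5% became 59.4%, 52.9% and 31.0% under these alternatives, 48.3% with a minimum of 5 FPKM and 39.4% with 1 FPKM added. The alternatives run for named genes could not turn the direction of a 2-fold difference, so its direction was not put to a test. An equal constant added to both values cannot reverse a ratio. The scalings shifted log2 ratios of this pair only by 0.03 (median-of-ratios factors) and -0.09 (equal sum).

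Of 445 named log2 ratios, 47 moved by more than 0.1 with 0.1 FPKM added to both values, 158 with 1 FPKM added, and none with other scaling, whose shift is itself under 0.1 in this pair. Of the list medians, 1 of 27 moved with 0.1 FPKM, 7 with 1 FPKM and none when scaled to an equal sum. An equal sum, examined for list directions after seeing the data, shifted all log2 ratios of 48 h to 0 h –dox by -0.23 and left 22 of 28 ribosomal protein genes higher in 0 h +dox than in 0 h –dox, against 28 as deposited. No paired analysis was possible because each deposited value combines both replicates, and no replicate could be left out for the same reason. Depth is unknown, so the precision of values near 1 FPKM is too.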
